A study of Mus musculus with 7 samples.

Results

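The genes described here are the numbered zinc finger genes of the mouse whose symbol is Zfp plus digits, or Zscan or Zkscan plus digits, without Zfp36 and the Zscan4 copies. Of 37620 gene identifiers measured, 377 carry such a symbol, and 157 of these had a mean of at least 1 FPKM over the 7 oocytes (146 Zfp, 4 Zscan and 7 Zkscan genes). FPKM is the number of fragments per kilobase of gene, scaled to the reads of the library, so levels can be set side by side between genes. The genes were thus chosen by their own mean level, which is a description and is not used as a result. Of the other 220 family genes, 39 were listed at 0 in every oocyte and 181 had a value but a lower mean.

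The series sequenced the RNA of single mouse oocytes at the MII stage, when the mature egg waits in its second meiotic division for fertilization, 1 oocyte per library. The KO group is 4 oocytes (KO1 to KO4) of genotype Hiraf/f, Zp3-Cre, in which the Zp3 promoter drives Cre in growing oocytes, and the WT group is 3 oocytes (WT1, WT2 and WT4) of genotype Hiraf/f, floxed alleles that both groups carry. Hira encodes a chaperone that places the histone variant H3.3 on chromatin outside of DNA replication. The labels name no animal, strain or age, and of the 4 WT oocytes counted in the design text, 3 are analysed here.

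C2H2 zinc finger proteins read DNA through rows of short zinc-holding loops, and they form the largest family of transcription factors in mammals. Many carry a KRAB domain, which recruits the corepressor Trim28 and through it Setdb1, the enzyme that lays down the repressive mark H3K9me3 on transposons and imprinted regions. Others carry a SCAN domain, which lets the proteins pair with each other. The genes lie in clusters that arose by duplication, and some of their products, Zfp57 above all, are stored in the oocyte and act in the embryo.

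Each library is a single cell and no animal is named, so a genotype counts as 1 sample and no test or p-value is given. The SD shows how single oocytes varied, "higher" and "lower" refer to these libraries, and without spike-in values more RNA of a gene cannot be told apart from less RNA of the others. A difference is the mean log2(FPKM + 1) of KO oocytes minus that of WT oocytes, so it understates the change of low genes, while ratios are of mean FPKM.

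Zscan26, Zfp992, Zfp640 and Zscan5b stood highest above WT among the 157 genes, and Zscan21 stood lowest. The 250 bases before the annotated start are shown for 5 genes past 2-fold, 5′ to 3′ on the gene's strand. These are Zscan21 and the highest genes with a single window among the RefSeq start regions used. Zfp992 and Zscan5b had no single window there and are not shown. The sequences are RefSeq on GRCm38.p6, and every CG pair is in capitals.
Zscan26 (chr13:21453728-21453977, minus strand): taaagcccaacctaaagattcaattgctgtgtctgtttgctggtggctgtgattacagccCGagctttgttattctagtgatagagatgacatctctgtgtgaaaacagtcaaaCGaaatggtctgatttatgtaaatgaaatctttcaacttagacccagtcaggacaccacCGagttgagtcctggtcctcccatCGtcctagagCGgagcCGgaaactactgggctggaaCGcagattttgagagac
Zfp640 (chr13:66680804-66681053, minus strand): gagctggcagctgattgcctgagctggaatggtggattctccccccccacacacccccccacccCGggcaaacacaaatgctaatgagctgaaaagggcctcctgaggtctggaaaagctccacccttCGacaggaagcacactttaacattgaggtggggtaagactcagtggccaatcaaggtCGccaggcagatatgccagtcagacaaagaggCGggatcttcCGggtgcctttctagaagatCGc
Zfp993 (chr4:146512599-146512848, plus strand): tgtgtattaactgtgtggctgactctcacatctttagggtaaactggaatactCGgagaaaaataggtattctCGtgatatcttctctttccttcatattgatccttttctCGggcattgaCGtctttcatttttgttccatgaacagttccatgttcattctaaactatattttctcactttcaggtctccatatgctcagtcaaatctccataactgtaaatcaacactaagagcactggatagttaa
Zfp101 (chr17:33394638-33394887, minus strand): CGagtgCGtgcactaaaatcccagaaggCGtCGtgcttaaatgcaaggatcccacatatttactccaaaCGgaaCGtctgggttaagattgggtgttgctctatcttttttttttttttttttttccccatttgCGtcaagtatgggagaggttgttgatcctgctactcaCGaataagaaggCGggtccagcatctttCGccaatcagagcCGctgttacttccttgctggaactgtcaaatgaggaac
Zscan21 (chr5:138116655-138116904, plus strand): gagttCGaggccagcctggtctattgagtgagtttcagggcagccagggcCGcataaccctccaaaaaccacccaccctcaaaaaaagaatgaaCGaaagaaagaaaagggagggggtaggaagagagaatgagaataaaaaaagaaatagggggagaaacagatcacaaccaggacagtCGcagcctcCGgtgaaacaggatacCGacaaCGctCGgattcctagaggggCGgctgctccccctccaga

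These windows held 7 CG pairs at Zscan26, 6 at Zfp640, 4 at Zfp993, 11 at Zfp101 and 9 at Zscan21. The 27025 genes with a window in the table were each counted by the window richest in CG where several starts are annotated. Of these genes, 48.6% held as many CG pairs as Zscan26 or more, 63.9% as many as Zfp993 and 38.0% as many as Zfp101. Windows were found for 131 of the 157 genes, and counted in the same way these genes held a median of 10 CG pairs against 6 over all genes in the table. A count of 10 or more was found in 52.7% of these 131 genes, against 40.2% of all genes in the table, which are of every kind and level. The 40 genes over 1.5-fold higher in KO oocytes had a median of 10, the 9 over 1.5-fold lower had 12, and the 82 between had 9. A count of 10 or more was found in 52.5% of the higher, 88.9% of the lower and 48.8% of the genes between. By this count of the richest window, zinc finger genes stood above all genes in the table. A larger share of the 9 lower genes than of the 40 higher ones reached 10 CG pairs. Genes with more annotated starts can reach higher counts, and the number of starts was not taken into account.

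Zscan26, which encodes a SCAN protein, had the largest difference. It was at 5.52, 7.96, 15.6 and 12.2 FPKM in KO1 to KO4, against 0.413, 0.787 and 1.79 FPKM in WT1, WT2 and WT4. All KO oocytes lay above all WT oocytes, and the lowest KO value was above the sum of the 3 WT values. The means were 10.3 ± 4.49 FPKM in KO and 0.995 ± 0.709 FPKM in WT oocytes (SD, n = 4 and n = 3), a ratio of 10.4 and a difference of 2.47. Whole reads worked out from the FPKM came to 6399 in KO (exact 95% Poisson interval 6243 to 6558) and 348 in WT (312 to 387). These intervals cover counting error only, since reads of amplified cDNA are not independent molecules, and the reads are the smallest whole numbers that fit. Of the 50-base windows of Zscan26 transcripts, 23.1% also occur in transcripts of other genes, so reads from a copy could have been counted there.

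Zscan5b, also a SCAN gene, was at 6.61, 4.72, 5.89 and 4.72 FPKM in KO1 to KO4, against 1.01, 2.48 and 0 FPKM in WT1, WT2 and WT4. The KO oocytes lay close together and all above WT, while the WT oocytes differed among themselves and WT4 held no read. A count of 0 allows up to 3 reads, or 0.0494 FPKM in that library. The means were 5.49 ± 0.931 FPKM in KO and 1.17 ± 1.25 FPKM in WT oocytes, a difference of 1.75, from 1823 KO reads (1740 to 1909) and 268 WT reads (237 to 302).

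Zscan21, a SCAN gene known in mice for promoting the growth of cerebellar granule cell precursors, went the other way. It was at 1.93, 1.66, 0.949 and 1.63 FPKM in KO1 to KO4, against 4.20, 4.26 and 4.50 FPKM in WT1, WT2 and WT4. The WT oocytes were within a narrow range and all above the KO oocytes. The means were 1.54 ± 0.419 FPKM in KO and 4.32 ± 0.159 FPKM in WT oocytes, 2.80-fold lower in KO, and the difference of -1.08 was the only one of the 157 past 2-fold downward, although it came to -0.96 without KO3.

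The 11 Zscan and Zkscan genes did not move as a block. Their differences ran from -1.08 for Zscan21 to 2.47 for Zscan26 with a median of 0.41. Of the 11, 8 were positive (7 with median-ratio scaling or quantile normalization of the libraries). Over all 7715 genes with a mean of at least 1 FPKM, 63.4% were positive. Zscan26 and Zscan5b were over 2-fold higher, Zscan21 was over 2-fold lower, and none of the other 8 was past 1.5-fold. Of those 7715 genes, 8.19% were over 2-fold higher and 2.46% lower, and at 1.5-fold 22.7% were higher and 8.23% lower. Zkscan8 had no overlap between the genotypes, at 2.60 ± 0.446 FPKM in KO and 1.59 ± 0.527 FPKM in WT oocytes, whereas Zkscan16 had overlapping values of 9.79 ± 1.99 FPKM in KO and 10.9 ± 3.52 FPKM in WT oocytes. All 11 hold a SCAN pattern in their predicted protein.

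**Figure D1:**
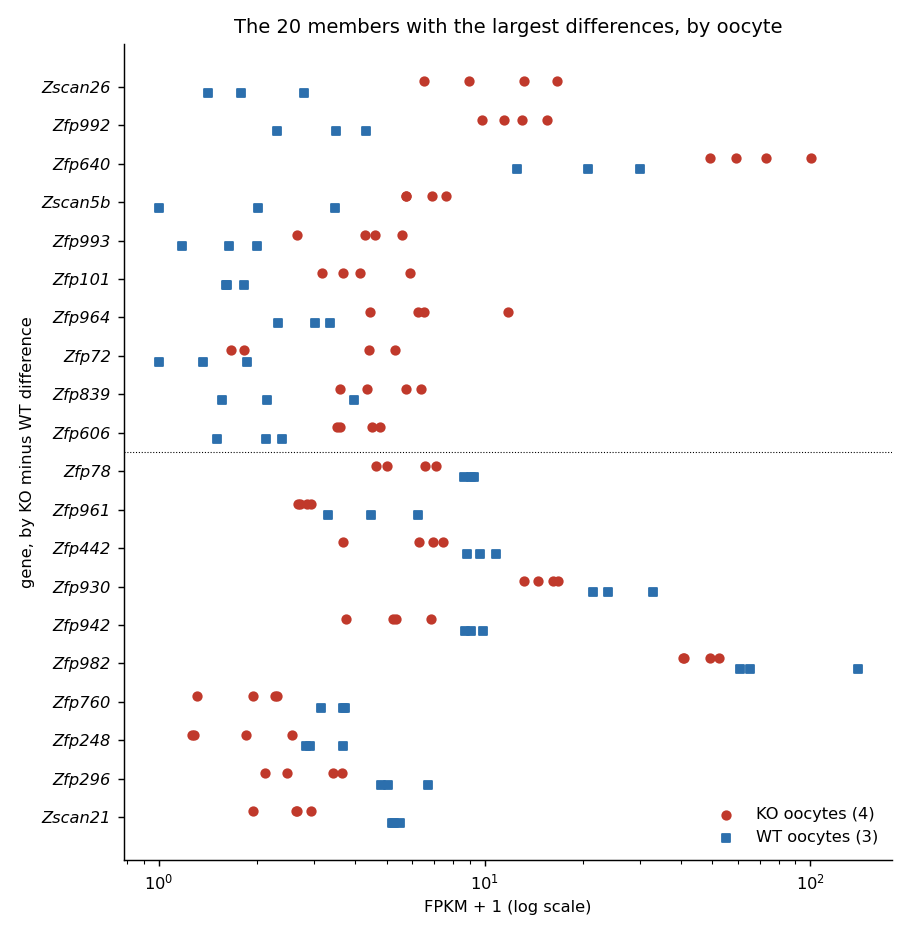
FPKM + 1 on a log axis for the 10 genes with the largest positive (top) and the 10 with the largest negative (bottom) difference, 1 row per gene; circles are the 4 KO oocytes and squares the 3 WT oocytes. Zscan26 and Zfp992 keep the genotypes far apart, whereas the circles and squares of Zfp72 and Zfp839 overlap.

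The largest differences outside the SCAN genes were in Zfp992 and Zfp640. Zfp992, a KRAB gene, was at 8.79, 10.48, 12.04 and 14.53 FPKM in KO1 to KO4, against 3.32, 2.51 and 1.30 FPKM in WT1, WT2 and WT4. The lowest KO oocyte was above the highest WT oocyte, with means of 11.5 ± 2.44 FPKM in KO and 2.38 ± 1.02 FPKM in WT oocytes and a difference of 1.91. Zfp640, which the reference annotates as a transcribed pseudogene, was at 57.9, 71.9, 48.1 and 99.5 FPKM in KO1 to KO4, against 19.7, 28.9 and 11.6 FPKM in WT1, WT2 and WT4. Again no oocytes overlapped, with means of 69.4 ± 22.3 FPKM in KO and 20.1 ± 8.65 FPKM in WT oocytes and a difference of 1.78. Zfp640 was the only gene of the family with a mean over 30 FPKM to pass 2-fold. Both share many 50-base windows with other genes, 43.0% for Zfp992 and 43.5% for Zfp640, so their reads cannot be told apart from those of their copies over that length.

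Zfp993, Zfp101 and Zfp964 followed. Zfp993 was at 1.65, 3.28, 3.60 and 4.56 FPKM in KO1 to KO4, against 0.640, 1.00 and 0.179 FPKM in WT1, WT2 and WT4. Its difference was 1.40 with no overlap, but it rests on 62 WT reads and shares 86.8% of its windows with other genes. Zfp101 was at 3.13, 4.89, 2.67 and 2.17 FPKM in KO1 to KO4, against 0.605, 0.623 and 0.832 FPKM in WT1, WT2 and WT4. It shares only 2.61% of its windows, and its KO oocytes were all above the WT oocytes, with a difference of 1.29. Zfp964 was at 6.26 ± 3.18 FPKM in KO and 1.90 ± 0.528 FPKM in WT oocytes, a difference of 1.25 without overlap, and KO4 at 10.8 FPKM was the highest. Without KO4 its difference was 0.98 and with quantile normalization 0.99, just under 2-fold.

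The other genes over 2-fold higher were Zfp72, Zfp839, Zfp606, Zfp809, Zfp937 and Zfp600. Zfp606, at 3.104 ± 0.630 FPKM in KO and 1.01 ± 0.456 FPKM in WT oocytes, had no overlap and shares none of its windows. Zfp72 was at 3.43, 0.670, 0.825 and 4.30 FPKM in KO1 to KO4, against 0, 0.869 and 0.371 FPKM in WT1, WT2 and WT4. KO2 and KO3 lay under WT2, so its difference of 1.09 rests on KO1 and KO4. Zfp839 overlapped likewise, with KO3 at 2.61 FPKM below WT1 at 2.97 FPKM. With median-ratio scaling Zfp606, Zfp72 and Zfp839 came to 0.90, 0.97 and 0.91, and with quantile normalization to 0.80, 0.91 and 0.81, so that none stayed past 2-fold. Leaving out single oocytes also ended these calls. Zfp606 came to 0.85 without WT2, 0.96 without KO2 and 0.99 without KO4, and Zfp72 to 0.80 without KO4, 0.86 without WT1 and 0.89 without KO1. Zfp839 came to 0.75 without WT2, 0.92 without KO4, 0.97 without KO1 and 0.98 without WT4. Zfp937 and Zfp600, at 1.02 and 1.00, lay at the edge of 2-fold and came to 0.86 and 0.81 with median-ratio scaling.

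Zscan21 was followed on the lower side by Zfp296, Zfp248 and Zfp760. Zfp296, known in mouse pluripotent cells as a partner of Klf4, was at 2.64, 2.42, 1.48 and 1.12 FPKM in KO1 to KO4, against 5.69, 3.80 and 4.07 FPKM in WT1, WT2 and WT4. The genotypes were apart and the difference was -0.94. Zfp248 was at 0.745 ± 0.614 FPKM in KO and 2.14 ± 0.457 FPKM in WT oocytes, a difference of -0.90. Zfp760 was at 0.964 ± 0.463 FPKM in KO and 2.52 ± 0.328 FPKM in WT oocytes, a difference of -0.87. With median-ratio scaling Zfp296, Zfp248 and Zfp760 came to -1.12, -1.03 and -1.02, and with quantile normalization to -1.19, -1.12 and -1.11, all past 2-fold. Zfp942 also passed 2-fold, at -1.04 with median-ratio scaling and -1.05 with quantile normalization. Zfp942, Zfp930, Zfp442, Zfp961 and Zfp78, all with a KRAB pattern, had differences between -0.83 and -0.65, and in all of these the KO oocytes were below the WT oocytes. Zfp930 was the most abundant of these 5, at 14.2 ± 1.61 FPKM in KO and 25.1 ± 5.99 FPKM in WT oocytes.

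Of the 157 genes, 13 were over 2-fold higher in KO oocytes (8.28%), against 8.19% of the 7715 genes with a mean of at least 1 FPKM. Only Zscan21 was over 2-fold lower (0.637%), against 2.46% of all genes. At 1.5-fold, 47 were higher (29.9%; 22.7% of all genes) and 11 were lower (7.01%; 8.23% of all genes). The KO oocytes all lay above the WT oocytes for 37 (23.6%; 18.8% of all genes) and below for 16 (10.2%; 9.2% of all genes). Differences were positive for 111 (70.7%; 63.4% of all genes), or 92 with median-ratio scaling and 91 with quantile normalization, and the median was 0.29 against 0.18 over all genes. The share past 2-fold upward was thus close to that of all genes, and the median was 0.11 above it.

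The split between higher and lower depends on the scale. Over all genes the median came to -0.01 with median-ratio scaling and -0.00 with quantile normalization, and the medians of the zinc finger genes were then 0.13 and 0.10. The 13 higher and 1 lower genes became 7 and 6 with median-ratio scaling (5.39% and 4.45% of all genes) and 6 and 5 with quantile normalization (5.22% and 3.88% of all genes). Zscan26, Zfp992 and Zfp640 stayed over 2-fold higher in 11 of 11 alternative settings, and Zscan21 stayed over 2-fold lower in 9 of 11.

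**Figure D2:**
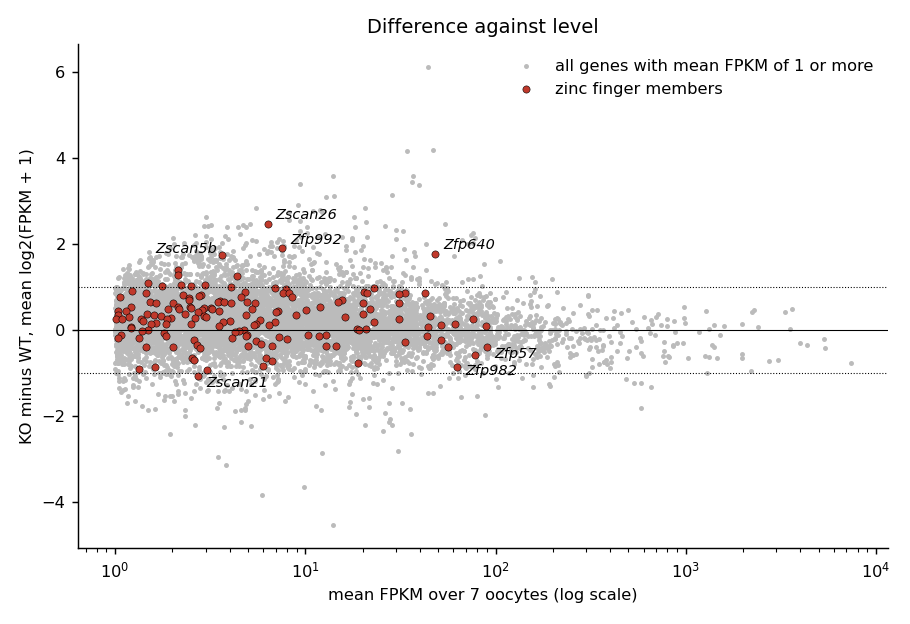
Difference, KO minus WT on the log2(FPKM + 1) scale, against the mean FPKM over the 7 oocytes on a log axis, for the 157 zinc finger genes (large points) and all 7715 genes (small points); dotted lines mark 2-fold. The zinc finger genes lie inside the cloud of all genes, with Zscan26, Zfp992, Zfp640 and Zscan5b near its upper edge.

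The zinc finger genes are mostly expressed at low levels. Their means ran from 1.01 to 89.7 FPKM with a median of 4.06, against a median of 5.60 FPKM over all genes, and 117 were under 10 FPKM. The difference was set beside that of all genes at a like level. At 1 to 3 FPKM the median was 0.34 for 66 zinc finger genes and 0.25 for all genes, and 7 were over 2-fold higher and 1 lower (8.38% and 2.45% of all genes in that range). At 3 to 10 FPKM it was 0.36 for 51 genes and 0.23 for all, with 5 higher and 0 lower (10.9% and 2.46% of all genes). At 10 to 30 FPKM it was 0.30 for 21 genes and 0.14 for all, with 0 past 2-fold in either direction (7.09% higher and 2.26% lower over all genes). At 30 to 100 FPKM it was 0.12 for 19 genes and 0.04 for all, with 1 higher and 0 lower (5.06% and 1.95% of all genes). The zinc finger medians were above those of all genes in each range, also with median-ratio scaling and quantile normalization.

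Just inside the threshold of 1 FPKM lay Zfp644 at 1.01, Zfp397 at 1.03 and Zfp39 at 1.04 FPKM, and just outside lay Zfp35 at 0.992, Zfp703 at 0.966 and Zscan29 at 0.959 FPKM. Both genotype means were at least 1 FPKM for 138 of the 157 genes. For 16 only the KO mean reached it, and for 3 only the WT mean did (Zfp81, Zfp760 and Zfp248). Among the 16 were Zscan26, Zfp993, Zfp101, Zfp72 and Zfp809, which also count among the 13 genes over 2-fold higher. Those 19 genes entered through the genotype in which they were high. The 157 genes held 319 to 129474 reads each over the 7 oocytes with a median of 3079, and 7 of 1099 gene and oocyte values rested on under 10 reads.

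Summed over the 157 genes, the level was 1783, 1889, 1798 and 1905 FPKM in KO1 to KO4, against 1583, 1840 and 1510 FPKM in WT1, WT2 and WT4. WT2 lay within the KO range and the other WT oocytes below it. The means were 1844 ± 62.1 FPKM in KO and 1644 ± 173 FPKM in WT oocytes, a ratio of 1.12 that turned to 0.940 with median-ratio scaling. Of these 157 genes, those at 1 FPKM or more numbered 149, 150, 146 and 149 in KO1 to KO4, against 137, 135 and 136 in WT1, WT2 and WT4. This count did not overlap between the genotypes, as was also true over all genes, with 7862 ± 247 in KO and 7132 ± 164 in WT oocytes at 1 FPKM or more. It uses the level by which the 157 genes were chosen and is a description only. The gap between the genotype means, 12.5 genes here, was 19 with no filter and 0.667 at a mean of at least 5 FPKM.

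Set against the WT mean, the median zinc finger gene stood at 0.27, 0.32, 0.20 and 0.26 in KO1 to KO4. Set against the other WT oocytes, it stood at -0.03, 0.12 and -0.05 in WT1, WT2 and WT4. Every KO value was above every WT value. The same median over all genes, taken off, left 0.11, 0.04, 0.07 and 0.12 in KO1 to KO4, against -0.15, 0.23 and -0.04 in WT1, WT2 and WT4. The KO oocytes then lay inside the range of the WT oocytes, so the surplus over all genes was smaller than the spread between WT oocytes.

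**Figure D3:**
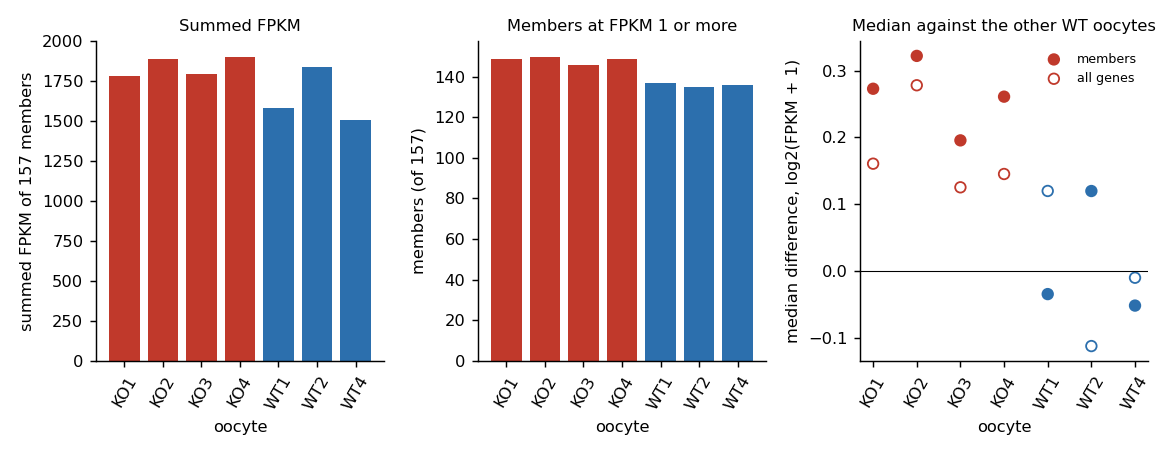
Values per oocyte, KO (red) left of WT (blue): summed FPKM of the 157 genes, genes at 1 FPKM or more, and the median difference on the log2(FPKM + 1) scale for zinc finger genes (filled) and all genes (open), with KO oocytes set against the WT mean and each WT oocyte against the other WT oocytes. WT2 reaches the KO range in the summed level but not in the number of genes at 1 FPKM or more.

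WT2 owed much of its sum to 3 abundant genes. Zfp982, Zfp979 and Zfp735 together exceeded the mean of WT1 and WT4 by 184 FPKM there, out of 294 FPKM over all 157 genes. Without these 3 the sum was 1628 ± 77.0 FPKM in KO and 1400 ± 69.4 FPKM in WT oocytes, with KO3, the lowest KO oocyte, at 1552 FPKM and WT2 at 1473 FPKM. These 3 genes were picked, after their values were seen, as those with the largest excess in WT2. Leaving them out had to bring WT2 closer to WT1 and WT4, so the sums without them are a description only. Within a genotype, 28 genes spanned over 2-fold among the KO oocytes and 28 among the WT oocytes (17.8% of the 157 each), against 20.5% and 20.4% of all genes.

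By the mean over all 7 oocytes the most abundant member was Zfp57, at 89.7 FPKM before Zfp735 at 88.9 FPKM, whereas Zfp735 and Zfp979 were above it in the KO means. Zfp57 is the KRAB protein that keeps DNA methylation on imprinted regions and is needed from the oocyte on. It was at 87.5, 98.5, 65.7 and 66.2 FPKM in KO1 to KO4, against 102, 94.3 and 113.8 FPKM in WT1, WT2 and WT4. KO2 was above WT2, so the genotypes overlapped, with means of 79.5 ± 16.2 FPKM in KO and 103 ± 9.83 FPKM in WT oocytes. The difference was -0.39, or -0.63 with median-ratio scaling and -0.36 with quantile normalization. Zfp655, which holds 7 fingers and neither domain pattern, was at 64.4, 65.9, 65.0 and 59.8 FPKM in KO1 to KO4, against 94.7, 99.6 and 93.4 FPKM in WT1, WT2 and WT4. Its values were tight within each genotype and apart between them. The difference was -0.58, or -0.82 with median-ratio scaling and -0.58 with quantile normalization.

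Zfp982 was at 48.2, 51.3, 39.8 and 39.6 FPKM in KO1 to KO4, against 59.8, 138.5 and 64.0 FPKM in WT1, WT2 and WT4. All KO oocytes were below all WT oocytes, but WT2 was far above the other WT oocytes. The difference of -0.85 came to -0.47 without WT2, -1.07 without WT1 and -1.02 without WT4. With median-ratio scaling it came to -1.09 and with quantile normalization to -0.85. Zfp735 had 90.1 ± 6.03 FPKM in KO and 87.2 ± 30.2 FPKM in WT oocytes. Zfp979 had 80.7 ± 20.3 FPKM in KO and 70.2 ± 32.7 FPKM in WT oocytes. Zfp706, which is needed for mouse embryonic stem cells to leave the naive state, had 63.9 ± 6.38 FPKM in KO and 58.3 ± 7.43 FPKM in WT oocytes. In these 3 the genotypes overlapped, and their differences of 0.10, 0.27 and 0.13 came to -0.15, 0.03 and -0.11 with median-ratio scaling.

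Of the 8 listed KRAB genes with known targets, 7 were above the level threshold, and 1 passed 2-fold upward and 0 downward (8.19% and 2.46% of all genes). That gene was Zfp809, which silences murine leukaemia viruses and related endogenous retroviruses by binding the site where their tRNA primer attaches. It was at 3.28, 1.51, 1.98 and 3.44 FPKM in KO1 to KO4, against 0.377, 0.820 and 0.951 FPKM in WT1, WT2 and WT4. Only its KO mean, 2.56 FPKM against 0.716 FPKM in WT oocytes, reached the level threshold. The lowest KO oocyte was above the highest WT oocyte, the difference was 1.03, and WT held 93 reads. It came to 0.89 with median-ratio scaling, 0.79 with quantile normalization, 0.88 without WT1, 0.91 without KO4 and 0.92 without KO1, and was past 2-fold in 5 of 11 alternative settings.

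Zfp568, which in mice represses a placental transcript of Igf2, was at 5.35, 3.76, 3.74 and 4.96 FPKM in KO1 to KO4, against 2.54, 2.26 and 2.38 FPKM in WT1, WT2 and WT4. No oocytes overlapped and the difference was 0.67, or 0.49 with median-ratio scaling and 0.41 with quantile normalization. Zfp445, which works beside Zfp57 in imprint maintenance, was at 3.97, 4.74, 5.28 and 5.59 FPKM in KO1 to KO4, against 1.56, 4.22 and 3.06 FPKM in WT1, WT2 and WT4. WT2 reached into the KO range, and the difference of 0.63 came to 0.35 without WT1. Zfp57 and Zfp445 thus stood on opposite sides of WT in their means, each with overlapping oocytes. Zfp932, which represses endogenous retroviruses in mouse embryonic stem cells, had a difference of -0.02, with 4.44 ± 0.987 FPKM in KO and 4.49 ± 0.603 FPKM in WT oocytes. Zfp708, which binds a class of retroviral repeats in the mouse, had 49.7 ± 6.08 FPKM in KO and 39.3 ± 6.05 FPKM in WT oocytes, and 100% of its windows occur in transcripts of other genes.

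Of the 11 genes listed for the early embryo and pluripotency, 3 were above the level threshold. Of these, 1 was past 1.5-fold upward and 1 downward (22.7% and 8.23% of all genes). The lower one was Zfp296, described above. Zfp281, a regulator of pluripotent states, had 4.41 ± 2.44 FPKM in KO and 2.21 ± 0.509 FPKM in WT oocytes with overlap, and its difference of 0.66 came to 0.39 without KO2. Zfp143, an activator that sits at many promoters, had 4.10 ± 1.21 FPKM in KO and 4.54 ± 2.76 FPKM in WT oocytes. Of the 12 listed as partners of chromatin complexes, 5 were above the threshold and none was past 1.5-fold. Zfp592 and Zfp532, whose human counterparts bind the chromatin reader ZMYND8, had differences of 0.36 and 0.43, which came to 0.13 and 0.22 without WT2. Zfp592 also came to 0.56 without WT1 and 0.19 without KO2.

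Of the 11 listed for RNA, ribosomes and the spindle, 6 were above the threshold, and only Zfp598 was past 1.5-fold. Of all genes 22.7% were past 1.5-fold upward and 8.23% downward. Zfp598, an E3 ubiquitin ligase that marks collided ribosomes, was at 7.32, 6.06, 5.27 and 5.79 FPKM in KO1 to KO4, against 4.62, 1.77 and 2.68 FPKM in WT1, WT2 and WT4. The KO oocytes were all above the WT oocytes, and the difference was 0.87. Zfp106, an RNA-binding protein that mice need for healthy motor neurons, had a difference of 0.28 that turned to -0.02 without WT2 and came to 0.48 without WT1. Of the 13 listed for signalling and development, 5 were above the threshold, none past 1.5-fold and all with positive differences (63.4% of all genes). However, the difference of Zfp423 turned to -0.04 with median-ratio scaling and -0.13 with quantile normalization, and that of Zfp110 to -0.03 with quantile normalization. Zfp91, a ubiquitin ligase of the NF-kB pathway, had 6.07 ± 0.735 FPKM in KO and 4.09 ± 0.870 FPKM in WT oocytes without overlap, and Zfp260, a cofactor of Gata4 in the heart, had 3.05 ± 1.39 FPKM in KO and 1.76 ± 0.703 FPKM in WT oocytes with overlap, a difference of 0.52 that came to 0.31 without KO4.

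Predicted proteins were read from the reference coding sequences of 155 of the 157 genes, and Zfp640 and Zfp939, annotated as pseudogenes, had none. At least 1 finger (a pair of cysteines with 2 to 4 residues between them, 12 further residues and a pair of histidines) was found in 150 proteins, with a median of 10 and a highest count of 27, in Zfp423. A KRAB pattern was found in 91 proteins, a SCAN pattern in 16, both in 3 and neither in 51. The classes are pattern matches only and can miss a domain, since of the 7 Zkscan genes only Zkscan16 matched the KRAB pattern. Both patterns were widened after values had been seen. The median difference was 0.32 for the 91 KRAB genes, 0.39 for the 16 SCAN genes and 0.26 for the 51 with neither. Among the KRAB genes 8 passed 2-fold upward and 0 downward, among the SCAN genes 2 upward and 1 downward, and among those with neither 2 upward and 0 downward. The upward shares were 8.79% of the KRAB, 12.5% of the SCAN and 3.92% of the other genes, against 8.19% of all genes, and the downward ones 0%, 6.25% and 0%, against 2.46% of all genes. The number of fingers made little difference to the median, which was 0.31 for the 82 genes with 10 fingers or more and 0.29 for the 73 with fewer.

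**Figure D4:**
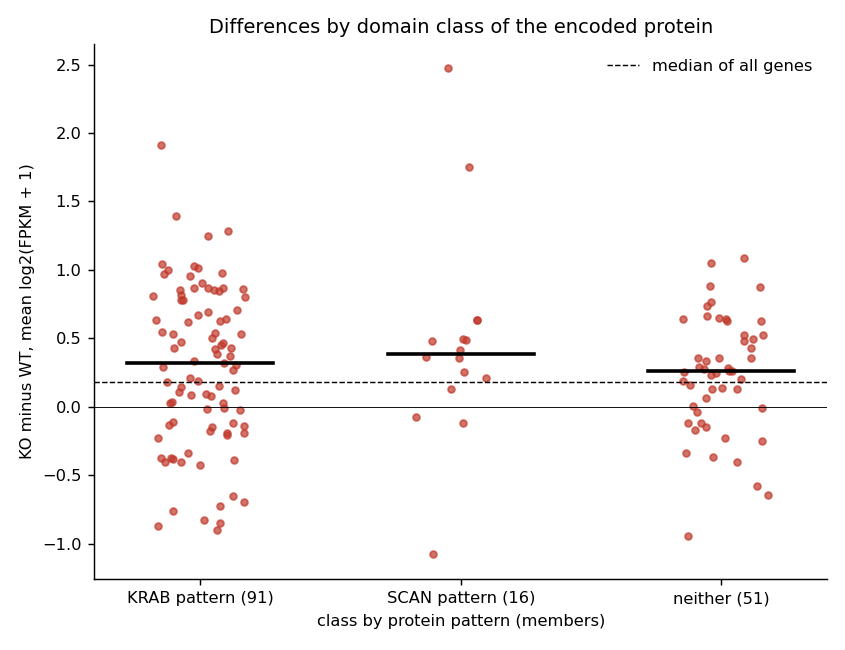
Difference, KO minus WT on the log2(FPKM + 1) scale, for genes whose protein holds a KRAB pattern (91), a SCAN pattern (16) or neither (51); bars are medians, the dashed line is the median of all 7715 genes, and the 3 genes with both patterns appear in both classes. The classes overlap widely, and Zscan26 and Zscan5b lie above the rest of the SCAN class.

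Because family members are alike in sequence, reads can fall on the wrong copy. Under 5% of 50-base windows were shared with other genes for 100 members, and their median difference was 0.24, against 0.18 over all genes. It was 0.05 with median-ratio scaling and 0.02 with quantile normalization, and 65 of these 100 differences were positive (65%; 63.4% of all genes). For the 57 with 5% or more the median was 0.38 (0.21 with either other scaling), with 46 positive (80.7%), and 34 of these genes shared 20% or more. Of the 13 genes over 2-fold higher, 7 shared under 5% of their windows. The part of shared windows in the differences was not tested.

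A total of 55 of the 157 genes lay in 8 runs of at least 4 members. Runs allowed at most 5 other protein-coding genes between neighbours, a limit that was widened after values had been seen. The longest, from Zfp980 to Zfp933, held 14 members, all with a KRAB pattern, and 13 of their 14 differences were positive, although with median-ratio scaling or quantile normalization 9 were. Over all genes 63.4% of differences were positive. They ran from -0.85 for Zfp982 to 1.91 for Zfp992 with a median of 0.40, and Zfp992, Zfp993 and Zfp600 were over 2-fold higher, 3 of 14 where 8.19% of all genes were. Zfp981, at 8.92 ± 1.11 FPKM in KO and 4.19 ± 1.48 FPKM in WT oocytes, and Zfp978, at 29.4 ± 6.27 FPKM in KO and 14.5 ± 4.41 FPKM in WT oocytes, came just under 2-fold, and neither overlapped. Within this run Zfp982 stood opposite to its neighbours, while 13 of the 14 share over 5% of their windows with other genes, 9 of them over 50%. Reads on shared windows can be counted at another gene, so the 14 differences need not be separate from each other. Summed over the run, the level was 222, 228, 266 and 229 FPKM in KO1 to KO4, against 175, 335 and 164 FPKM in WT1, WT2 and WT4. The sum did not part the genotypes, since WT2 was the highest of all 7 oocytes.

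Values of other runs are given beside it, with no test of a difference between runs. The run from Zfp160 to Zfp40 held 13 members, of which 6 were positive (3 with either other scaling), with a median of -0.02 and a range from -0.87 for Zfp760 to 0.86 for Zfp820. The run from Zfp84 to Zfp260 held 6 members, of which 4 were positive, with a median of 0.44. The run from Zfp930 to Zfp866 also held 6, of which 5 were positive (3 with median-ratio scaling and 2 with quantile normalization), with a median of 0.11. The run from Zfp640 to Zfp58 held 4 members, all positive, with a median of 0.68. Its sum was 142, 144, 130.4 and 181 FPKM in KO1 to KO4, against 81.4, 82.9 and 63.3 FPKM in WT1, WT2 and WT4. Here all KO oocytes were above all WT oocytes, and most of the gap came from Zfp640. Zfp58 in that run was at 26.5 ± 0.656 FPKM in KO and 14.2 ± 1.09 FPKM in WT oocytes, without overlap. Of the 4 members of that run, 3 share over 5% of their windows with other genes, and 2 of them, Zfp708 and Zfp58, over 50%. In the run from Zfp120 to Zfp345, Zfp937 was over 2-fold higher and the next member, Zfp442, had a difference of -0.73. These 2 members thus stood on opposite sides of WT. They share 29.4% and 32.3% of their windows with other genes, so reads of either can be counted at another gene.

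**Figure D5:**
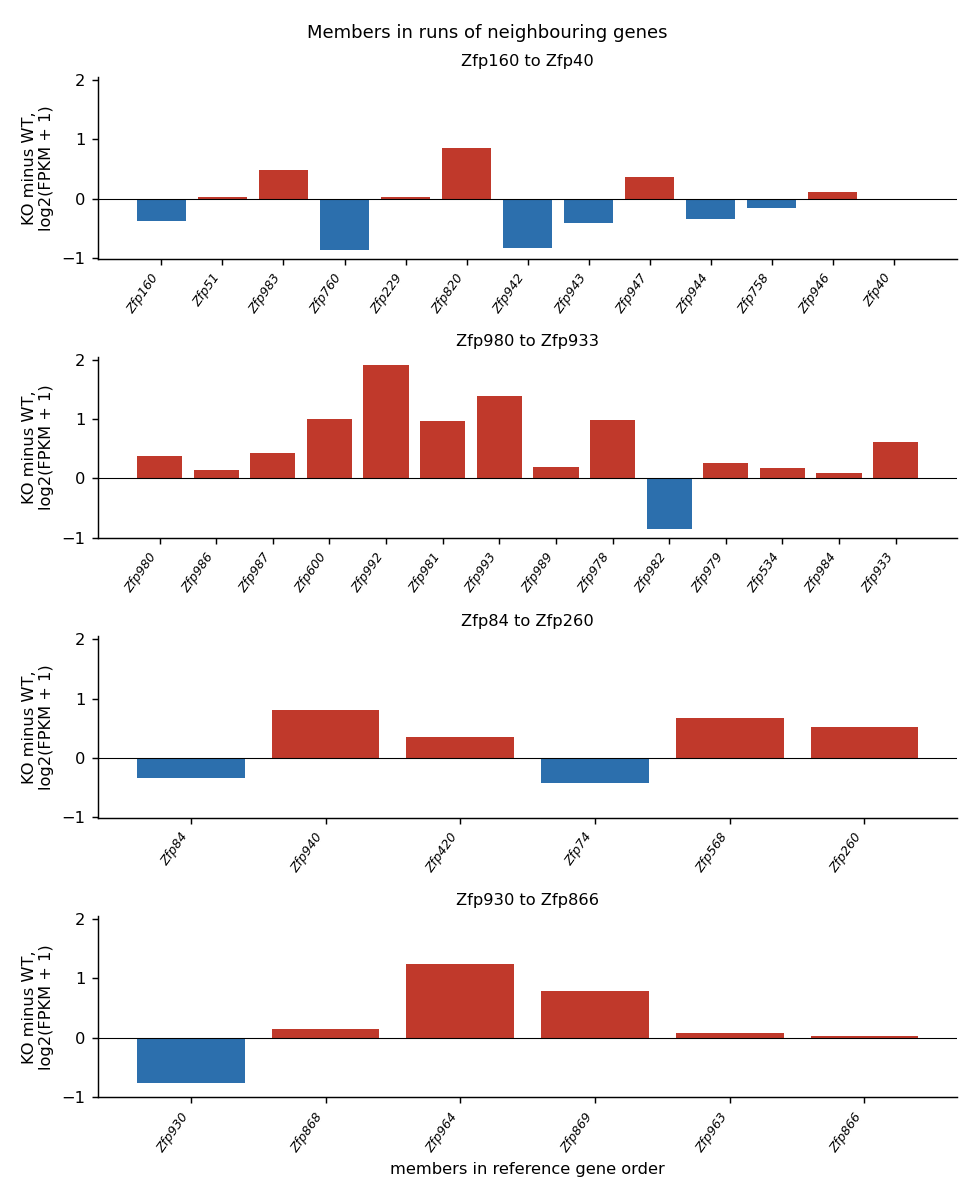
Difference, KO minus WT on the log2(FPKM + 1) scale, for the members of the 4 runs with at least 6 members, in reference gene order; red bars are positive and blue bars negative. On this scale the run from Zfp980 to Zfp933 has 1 negative bar, at Zfp982 (9 of 14 bars would be positive with either other scaling), whereas the run from Zfp160 to Zfp40 has bars on both sides of 0.

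Transcripts of the proteins through which KRAB factors act were compared as well. Of 20 listed partners, 18 were above the level threshold, and 2 passed 2-fold upward and 0 downward (11.1% and 0%; 8.19% and 2.46% of all genes). Differences were positive for 11 of the 18 (61.1%; 63.4% of all genes). The KO oocytes all lay above the WT oocytes for 5 partners and below for 3 (18.8% and 9.2% of all genes). Among those below, Uhrf1 had 74.6 ± 7.36 FPKM in KO and 94.8 ± 6.78 FPKM in WT oocytes. Cbx5, also below, had 3.20 ± 0.291 FPKM in KO and 3.77 ± 0.0707 FPKM in WT oocytes. The median difference of 0.28 was 0.04 with median-ratio scaling and 0.22 with quantile normalization. Trim28, the corepressor bound by KRAB domains, was at 26.2, 27.7, 23.0 and 27.1 FPKM in KO1 to KO4, against 15.1, 8.82 and 10.4 FPKM in WT1, WT2 and WT4. All KO oocytes were above all WT oocytes, and the difference was 1.14. Dnmt3a, which lays down new DNA methylation in growing oocytes, had 4.40 ± 1.17 FPKM in KO and 1.49 ± 0.546 FPKM in WT oocytes, a difference of 1.11 without overlap. With median-ratio scaling Trim28 came to 0.92 and Dnmt3a to 0.95, and with quantile normalization to 0.99 and 0.87, all under 2-fold.

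Setdb1, the H3K9 methyltransferase brought in by Trim28, had 14.5 ± 2.04 FPKM in KO and 9.80 ± 0.996 FPKM in WT oocytes, and Chd4, the ATPase of the NuRD complex, had 9.78 ± 1.52 FPKM in KO and 4.98 ± 1.49 FPKM in WT oocytes. Both kept the genotypes apart, with differences of 0.52 and 0.87, or 0.29 and 0.66 with median-ratio scaling. Other zinc finger families gave medians of 0.13 for 17 Zbtb genes, 0.46 for 5 Klf genes and 0.32 for 7 genes named Zfp plus digits and letters, so other families also had a positive median, although that of the Zbtb genes was -0.05 with median-ratio scaling and -0.12 after quantile normalization.

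For the series as a whole, reads in genes came to 15340459 to 25940051 per oocyte, and the 157 genes held 1.03% to 1.07% of them in KO and 0.867% to 1.03% in WT oocytes. Hira was at 0.0784 ± 0.0362 FPKM in KO and 0.317 ± 0.0280 FPKM in WT oocytes over the whole gene, without overlap. All 12 oocyte markers were above 1 FPKM, and their sum was 6558 to 6934 FPKM in KO and 9964 to 10288 FPKM in WT oocytes. Of 15 cumulus and granulosa cell markers, 3 were above 1 FPKM (Cyp19a1, Fshr and Nr5a2), 5 were at 0 in every oocyte (Amh, Foxl2, Inhbb, Lhcgr and Tnfaip6), and the sum was 32.9 to 36.7 FPKM in KO and 23.6 to 25.8 FPKM in WT oocytes. The sum of 4 blood markers was 0 to 1.99 FPKM in KO and 0.404 to 1.52 FPKM in WT oocytes, with Hba-a1 and Lyz2 at 0 throughout. The part of these marker sums in the zinc finger differences was not tested.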

How the data were processed

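RNA of 7 single MII oocytes (4 KO, 3 WT) was sequenced from amplified cDNA. The deposited values are FPKM that the authors computed per Ensembl gene, unlogged. The submitters' processing notes name the mm9 build, the counting tools HTSeq and edgeR 3.1.10, and the aligners Bowtie2, Bowtie 0.12.8, TopHat and TopHat2 2.0.2, with no order or role given.

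Symbols came from a GENCODE vM21 reference on a later build (87.4% of identifiers named), so mm9 coordinates are not given. Differences are of mean log2(FPKM + 1) over genes with a mean of at least 1 FPKM. Alternatives were median-ratio scaling, quantile normalization, pseudocounts of 0.1 and 5, other level filters and leaving out each oocyte. Python 3.11.15, pandas 2.3.3 and numpy 2.4.6 were used. The procedure was tested on simulated data. No statistical test of the genotype was run.

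Whole reads were recovered for 157 of 157 members as the smallest whole numbers that fit the FPKM ratios within 0.01. On simulated FPKM 98.7% of 1990 genes came back exactly. Depth was 15340459 to 25940051 reads in genes. A factor common to all oocytes of a gene would be missed.

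Fingers, KRAB and SCAN stretches were found by pattern in translations of the longest coding sequence. The KRAB and SCAN patterns, and the limit of 5 genes between neighbours, were widened after values had been seen. Shared windows are 50-base stretches found in transcripts of other genes.

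The genes named are the 10 largest positive and 10 largest negative differences, the 6 highest means, the 2 largest per role list, all KRAB genes with known targets, 3 on each side of the threshold, and Trim28, Setdb1 and the 3 partners with the largest differences, of which 1 is not reported here. Zfp600, Zfp937, Zfp58, Zfp81, Zfp820, Zfp978, Zfp981, Zfp143, Zfp110, Zfp423, Zkscan8, Zkscan16, Uhrf1 and Cbx5 were named outside this rule, after their values were seen. The members and lists were chosen with earlier results of these data known.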

Additional observations from a re-analysis of the deposited data

Results flagged for a closer look

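In 1 of 51 KO groups tested, for the genes named, a single oocyte stood far from the others. Zfp703, just below the level threshold, was at 1.90 FPKM in KO1 and 0.979, 0.881 and 0.820 FPKM in KO2, KO3 and KO4. The gap from KO1 to KO2 made up 0.852 of the whole range, above the 95% critical value for 4 samples. Chance flags about 1 in 20 such groups. The WT group of 3 oocytes is too small for this check.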

How the results depend on the processing

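The 13 genes over 2-fold higher and 1 lower came to 7 and 6 with median-ratio scaling, 6 and 5 with quantile normalization, 27 and 4 with a pseudocount of 0.1, 3 and 0 with a pseudocount of 5, and 3 and 0 among the 65 genes with a mean of at least 5 FPKM. With a pseudocount of 0.1 these were 17.2% and 2.55% of the 157, against 15.5% and 4.72% of all genes. With a pseudocount of 5 they were 1.91% and 0%, against 1.92% and 0.791% of all genes. At a mean of at least 5 FPKM they were 4.62% and 0%, against 7.18% and 2.38% of all genes at that level. Leaving out each oocyte gave 9 to 16 higher and 0 to 3 lower, with 0 lower without KO3, 3 without KO1, 1 without KO4, and 2 without each of the others. The higher ones were 5.73% to 10.2% of the 157, against 7.54% to 11.4% of all genes. The lower ones were 0% to 1.91% of the 157, against 2.32% to 3.11% of all genes. The median difference of 0.29 came to 0.13 with median-ratio scaling, 0.10 with quantile normalization, 0.42 and 0.14 with pseudocounts of 0.1 and 5, 0.12 over the 338 genes with no filter and 0.19 at a mean of at least 5 FPKM, and to 0.26 to 0.32 with each oocyte left out. The ratio of summed FPKM, 1.12 as reported, turned to 0.940 with median-ratio scaling and was 1.03 with quantile normalization (1.077 to 1.192 with each oocyte left out). The gap in genes at 1 FPKM or more, 12.5 as reported, was 6.42, 2.50, 19 with no filter and 0.667 at a mean of at least 5 FPKM (12 to 13.3 with each oocyte left out). For the 48 named genes, 478 of 528 values under these alternatives moved by less than the spread between oocytes, 50 moved by more, and none of the differences past 2-fold changed sign, although smaller ones did, such as that of Zfp106 without WT2. No paired analysis was possible because the replicate numbers only name single oocytes and no test was run. Of 1099 values, 7 rest on under 10 reads, but reads of amplified cDNA are not independent molecules. The part of depth in the differences was not tested. The cause of the differences between settings was not tested.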
